A study of Mus musculus with 88 samples.

Results

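Mouse embryonic stem cell (ESC) lines derived and kept in a2i, a medium in which a Src inhibitor takes the place of the MEK inhibitor, were compared with lines in 2i, which combines a MEK inhibitor with a GSK3 inhibitor. The 8 RNA libraries were those of 4 a2i lines (XX lines 4 and 18, XY lines 1 and 3) and 4 2i lines (XX lines 3 and 4, XY lines 2 and 6), of 88 samples in the series. All 8 lines came from an F1 cross of 129X1/SvJ and C57BL6 and were taken at passage 3. Each medium and sex is represented by 2 lines. Poly(A)-selected, strand-marking libraries were made from column-purified RNA, and expression was deposited as RPKM (read density per transcript length and library size) for 21942 loci. In the text, values for a group of 2 lines are given in the line order above. The t2i lines (less MEK inhibitor; XX lines 1 and 3, XY lines 2 and 6) and the serum lines of the same cross entered the fit and are mentioned only where they bear on a2i. The labels give media by name, without concentrations, and do not say on which day a line was harvested.

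In ESCs, autocrine FGF activates the kinase cascade RAF, MEK and ERK, which turns on target genes that include the cascade's own phosphatases and Sprouty-type inhibitors and prepares cells to leave the naive state. MEK inhibition blocks this step directly. Src family kinases act at the membrane, at focal adhesions and junctions and downstream of growth factor receptors, and their inhibition leaves MEK itself free. In XX ESCs, which carry a pair of active X chromosomes, 2i is known for a loss of DNA methylation, imprints included. Methylation profiles of the series were not analysed here.

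The lines matched their labels. Pou5f1, the transcription factor that defines pluripotent cells, lay between 1470 and 1910 RPKM in the 8 libraries. The Y-linked gene Eif2s3y was listed at 0 in the 4 XX libraries and lay between 18.1 and 36.7 RPKM in the 4 XY libraries. The median X-linked gene was higher in XX than in XY lines by 0.86 in 2i and 0.83 in a2i on the log2(RPKM + 1) scale, which is the scale of every difference below. The summed RPKM of 18 fibroblast genes was 4.00 to 11.8 in 2i, 8.97 to 15.8 in a2i, 1145 to 1705 in the serum libraries and 16674 to 17391 in 2 embryonic fibroblast libraries of another cross (129X1/SvJ and MSM/Ms, passage 1), with Col3a1 at or below 0.132 in the 8 libraries. The number of loci at 1 RPKM or more was 11314 to 11424 in 2i and 11293 to 11749 in a2i. Low RPKM stepped by whole reads, and the commonest ratio between libraries put the depth of the 8 at 0.77 (2i XY line 6) to 1.19 (a2i XY line 3) of that of 2i XX line 3; the absolute depth is unknown.

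Of 13150 genes tested, 1813 (13.8%) were called between a2i and 2i at an adjusted p under 0.05 (limma, 16 libraries, Benjamini-Hochberg). Of these, 1044 (7.94%) were higher in a2i and 769 (5.85%) were lower. The median difference was 0.62 among the genes called higher and -0.57 among those called lower, and 179 of the first and 95 of the second exceeded 1 in size. The median over all genes tested was 0.02. In 898 genes (6.83%) all 4 a2i libraries lay above or below all 4 2i libraries, and 395 of the genes called higher and 238 of those called lower were among them. After quantile normalization the split was 837 higher and 880 lower. A fit to the 8 libraries alone with XX or XY as a covariate called 399 higher and 307 lower. It has no term for a medium effect that differs between XX and XY lines, so such a difference enters its residual spread. Calls said below to be lost in the fit to the 8 libraries refer to this fit.

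More genes separated the media in XX than in XY lines. Taken within 1 sex, 1835 genes were called in XX lines and 728 in XY lines. Between an a2i and a 2i line of the same sex, 829 to 900 genes differed by more than 2-fold in XX and 469 to 580 in XY, against 105 to 296 between the 2 lines of a group. The pair of a2i XX lines differed at 296 genes, the most of the 4 pairs. The XX and XY effects of the medium were called apart for 648 genes (4.93%). Of these, 435 had the more positive difference in XX lines and 213 the more negative, against 245 and 200 after quantile normalization. The number called apart depended on single lines. It ranged from 161 genes without 2i XY line 2 to 497 without a2i XX line 18. A separate fit of 4 group means to the 8 libraries called 230.

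**Figure D1:**
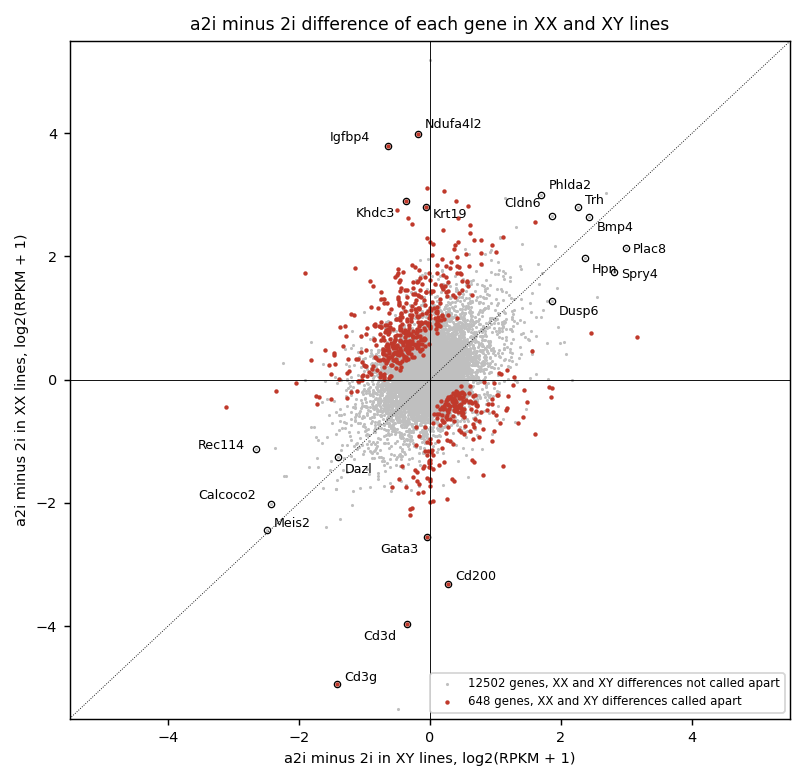
Difference between a2i and 2i in XY lines (x axis) and in XX lines (y axis), both as log2(RPKM + 1), for the 13150 genes tested; red points are the 648 genes whose XX and XY differences were called apart. Bmp4, Phlda2 and Cldn6 lie high on both axes and Meis2 and Calcoco2 low on both, while Igfbp4, Khdc3 and Cd3d are displaced mainly along the XX axis.

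Promoters of 5 genes reported below are shown as single examples. An ERK feedback gene, a BMP ligand and an epithelial junction gene were higher in a2i. A germline gene and a T-cell receptor gene were lower, although of 19 germline genes 6 were called higher and 4 lower. Each promoter is the 250 bases before the RefSeq transcription start (GRCm38.p6), read 5′ to 3′ on the gene's strand. CG dinucleotides, the sites of DNA methylation, are in capitals.
Dusp6 (chr10:99262981-99263230, plus strand): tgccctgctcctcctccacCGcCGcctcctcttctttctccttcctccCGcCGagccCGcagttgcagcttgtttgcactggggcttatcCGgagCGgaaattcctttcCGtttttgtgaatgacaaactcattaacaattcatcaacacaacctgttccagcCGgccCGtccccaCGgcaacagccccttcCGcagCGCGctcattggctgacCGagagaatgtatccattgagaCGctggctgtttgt
Bmp4 (chr14:46390670-46390919, minus strand): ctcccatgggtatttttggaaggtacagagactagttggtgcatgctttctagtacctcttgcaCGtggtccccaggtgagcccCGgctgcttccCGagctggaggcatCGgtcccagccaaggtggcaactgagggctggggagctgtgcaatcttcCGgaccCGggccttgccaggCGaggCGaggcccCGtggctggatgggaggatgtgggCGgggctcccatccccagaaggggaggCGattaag
Cldn6 (chr17:23679115-23679364, plus strand): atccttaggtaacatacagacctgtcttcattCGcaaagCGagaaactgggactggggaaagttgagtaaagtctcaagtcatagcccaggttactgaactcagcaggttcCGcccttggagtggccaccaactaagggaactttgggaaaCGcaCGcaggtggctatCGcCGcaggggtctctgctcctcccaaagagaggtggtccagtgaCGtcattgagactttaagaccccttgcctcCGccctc
Dazl (chr17:50293621-50293870, minus strand): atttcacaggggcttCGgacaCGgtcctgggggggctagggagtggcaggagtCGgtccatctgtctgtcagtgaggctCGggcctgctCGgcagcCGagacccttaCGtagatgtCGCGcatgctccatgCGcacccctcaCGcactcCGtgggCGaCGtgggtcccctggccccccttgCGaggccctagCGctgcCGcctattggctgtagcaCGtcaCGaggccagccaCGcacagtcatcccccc
Cd3g (chr9:44980432-44980681, minus strand): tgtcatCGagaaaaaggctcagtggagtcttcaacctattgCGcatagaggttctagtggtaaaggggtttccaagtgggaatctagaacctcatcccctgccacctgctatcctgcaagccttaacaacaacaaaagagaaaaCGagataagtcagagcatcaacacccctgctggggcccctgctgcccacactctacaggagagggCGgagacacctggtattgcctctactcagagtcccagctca

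The CG count, the same on both strands, was 16 for Dusp6, 11 for Bmp4, 9 for Cldn6, 20 for Dazl and 4 for Cd3g. Over the 9972 tested genes with a promoter in the RefSeq table the median was 16, and 0.882% of those promoters held no CG. Genes called higher had a median of 15 (783 matched) and genes called lower a median of 12 (577 matched). Fewer than 5 CGs were found in 10.5% of all matched promoters, in 12.5% of those called higher and in 19.8% of those called lower. The 19 germline genes tested had a median of 17 over 16 matched promoters. These letter counts describe the reference sequence and carry no information on methylation in the lines.

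Several feedback inhibitors and immediate early genes of the ERK pathway were higher in a2i. Of 12 feedback inhibitors of the pathway tested, 5 were called higher and none lower, and the median difference of the list was 0.36. Counts of list members, here and below, stand beside 7.94% called higher and 5.85% called lower over all genes tested. Dusp6 (chromosome 10, 99263231 to 99267488, mm10), a phosphatase that removes phosphate from ERK, was 1.74 and 1.78 RPKM in 2i XX lines, 3.03 and 2.45 in 2i XY lines, 3.92 and 8.14 in a2i XX lines and 15.9 and 9.76 in a2i XY lines. All 4 a2i lines lay above all 4 2i lines, and the a2i XY pair was the highest. The difference was 1.57 ± 0.21 (SE, adjusted p 0.000559).

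Spry4, a Sprouty protein that restrains receptor tyrosine kinase signalling, rose from 0.628 and 0.462 RPKM in XX and 0.189 and 0.0629 in XY to 2.01 and 7.84 in XX and 9.16 and 5.03 in XY. The groups did not overlap, although a2i XX line 4 stayed well below its partner (2.27 ± 0.31, adjusted p 0.00058). Dusp4, a nuclear ERK phosphatase, was 1.05 to 1.74 RPKM in 2i and 3.15 to 10.2 in a2i, with a2i XX line 18 highest (1.17 ± 0.24, adjusted p 0.00603). The remaining calls, Spry1 (0.53 ± 0.13) and Spred1 (0.64 ± 0.16), were lost in the fit to the 8 libraries and when any of 4 (Spry1) or 3 (Spred1) single libraries was left out, with differences from 0.43 to 0.64 and from 0.48 to 0.80.

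Egr1, an immediate early transcription factor induced by ERK, was near 0 in 2i, at 0.0249 and 0.074 RPKM in XX and 0.0731 and 0.0974 in XY. In a2i it reached 0.29 and 1.10 in XX and 1.94 and 2.28 in XY, again without overlap (1.08 ± 0.14, adjusted p 0.000325). Of 14 immediate early genes tested, 5 were called higher and none lower, with a list median of 0.12. The others were Fos, Fosl2, Junb and Ier3, with differences of 0.52 to 0.85. Each of these 4 calls was lost without at least 1 library. The calls of Fos, Junb and Ier3 were also lost in the fit to the 8 libraries. Fosl2 was not tested in that fit or without the serum libraries, because it reached 1 RPKM in fewer than 2 libraries there. It entered the main fit only through the serum libraries. Fos, a subunit of the AP-1 transcription factor, was 0.589 and 0.811 in 2i XX and 3.06 and 5.30 in a2i XX, but 2.51 and 1.45 in 2i XY and 1.60 and 1.49 in a2i XY, and this contrast between the sexes was itself called (1.78, adjusted p 0.0106).

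Among 11 ETS and Myc effectors, 2 were called higher and 1 lower (list median -0.01). Etv4, an ETS factor induced by FGF, was 11.1 to 28.2 RPKM in 2i and 27.7 to 49 in a2i, a difference of 0.95 ± 0.26 that 4 single libraries could remove. Its relative Etv5 had a difference of -0.18 ± 0.19 (adjusted p 0.595). Elk3, a partner of serum response factor, differed by 0.57 ± 0.12, and its call was lost in the fit to the 8 libraries. Ets2 differed by -0.38 ± 0.11. Its call was lost in the fit to the 8 libraries, without the serum libraries, with no filter and without any of 6 single libraries. Of 26 components that carry the signal from FGF to ERK, 1 was called: Mapk3, which encodes ERK1, at 32.0 to 63.5 RPKM in 2i and 56.9 to 103 in a2i (0.74 ± 0.13, adjusted p 0.00233).

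**Figure D2:**
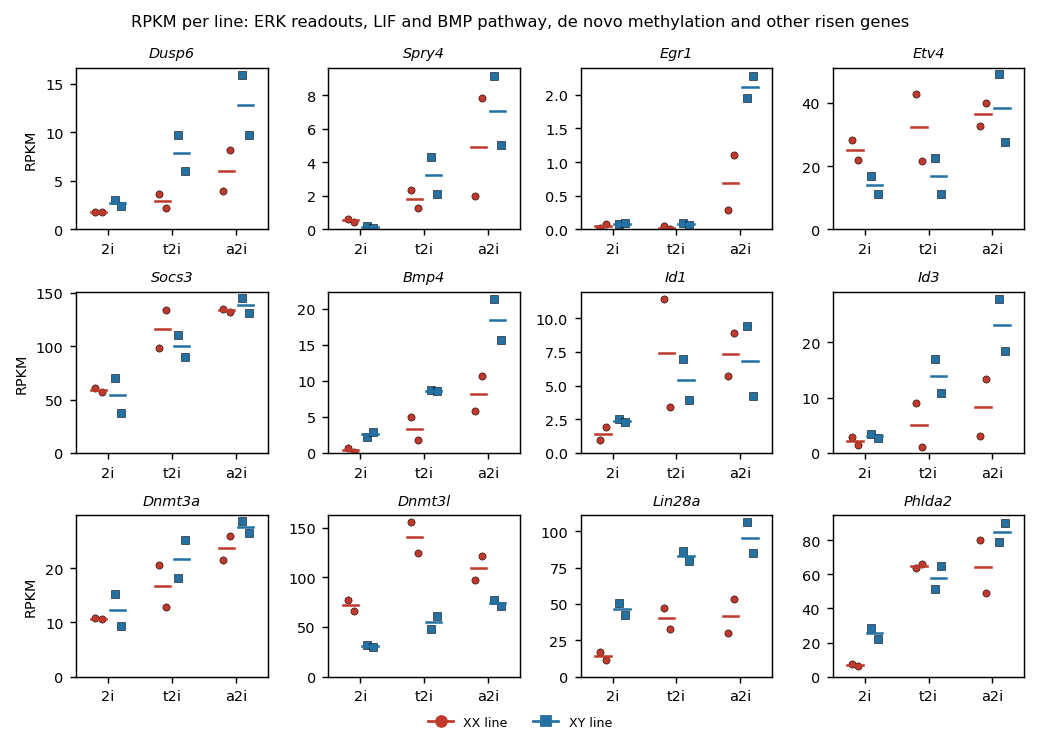
RPKM of 12 genes in each XX line (circles) and XY line (squares) kept in 2i, t2i and a2i, with horizontal bars at the mean of the 2 lines. For Dusp6, Spry4, Egr1, Bmp4, Socs3, Id1, Dnmt3a and Phlda2 all 4 a2i lines lie above all 4 2i lines; for Etv4, Id3, Dnmt3l and Lin28a the ranges overlap.

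The transcripts of Src itself and of its closest relatives were not called. Src was 24.2 to 42.4 RPKM in 2i and 16.7 to 40.3 in a2i (-0.09 ± 0.18, adjusted p 0.806). Yes1 (-0.07 ± 0.10), Fyn (0.31 ± 0.10) and Csk (0.01 ± 0.09), the kinase that holds Src family members inactive, missed the threshold as well. Of 10 family members and regulators tested, 1 was called. Lck, the member best known from T cells, was 7.53 and 5.96 RPKM in 2i XX, 21.9 and 20.6 in 2i XY, 19.6 and 20.4 in a2i XX and 38.9 and 38.4 in a2i XY. It was higher in a2i within each sex, with the a2i XX level reaching that of 2i XY (1.14 ± 0.11, adjusted p 6.23e-05).

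Of 21 focal adhesion genes and Src substrates, 5 were called higher and none lower, against 7.94% and 5.85% over all genes tested. The list median was 0.08. Ptrf, a coat protein of caveolae, was 1.91 and 1.30 RPKM in 2i XX, 14.0 and 11.5 in 2i XY, 7.41 and 7.52 in a2i XX and 31.4 and 21.9 in a2i XY (1.35 ± 0.15, adjusted p 0.000121). Ptk2b, a kinase related to focal adhesion kinase, rose from 1.91 to 3.30 in 2i to 5.21 to 6.5 in a2i, without overlap (0.87 ± 0.12, adjusted p 0.000535). Zyx, a zinc-binding adaptor of focal adhesions, was 3.24 to 9.74 in 2i and 12.8 to 16.6 in a2i (0.996 ± 0.23). Its call was lost without 2i XY line 6 (largest adjusted p 0.0575), and those of Pxn and Ptk2 without any of 5 and 4 libraries. All 3 were lost in the fit to the 8 libraries.

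Genes of the actin cytoskeleton gave 2 higher and 1 lower call among 15, against 7.94% and 5.85% over all genes tested. Tpm2, a tropomyosin, was 4.66 and 6.56 RPKM in 2i XX, 11.2 and 9.22 in 2i XY, 12.4 and 18.8 in a2i XX and 17.8 and 20.8 in a2i XY (1.09 ± 0.18, adjusted p 0.00199). Vim, the intermediate filament of mesenchymal cells, was 209 to 379 in 2i and 104 to 233 in a2i and fell in both sexes (-0.84 ± 0.18, adjusted p 0.0079). Of 14 YAP targets, 2 were called lower and none higher. Cyr61, a secreted matrix protein, went from 28.8 and 26.5 to 14.6 and 9.59 in XX and from 4.18 and 3.09 to 2.15 and 2.67 in XY (-0.80 ± 0.15, adjusted p 0.00462). Its relative Ctgf fell alike (-0.81 ± 0.14, adjusted p 0.00219).

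In the LIF pathway, which sustains self-renewal through STAT3, 3 of 13 genes were called higher and 1 lower. Socs3, the feedback inhibitor of the LIF receptor, was 61.2 and 57.3 RPKM in 2i XX, 70.5 and 37.7 in 2i XY, 135 and 132 in a2i XX and 146 and 131 in a2i XY. The 4 a2i lines were nearly equal and all above 2i (1.28 ± 0.18, adjusted p 0.000594). Socs2 rose by 0.74 ± 0.10. Stat3 differed by 0.56 ± 0.11, mostly through XX lines (18.8 and 23.3 in 2i, 36.9 and 50.6 in a2i), and its call was lost in the fit to the 8 libraries. Pim1, a kinase among the STAT3 targets, fell by 0.58 ± 0.10.

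In the BMP pathway the ligand Bmp4 was higher in a2i. It was 0.691 and 0.196 RPKM in 2i XX, 2.27 and 2.93 in 2i XY, 5.77 and 10.6 in a2i XX and 21.3 and 15.7 in a2i XY. Every a2i line exceeded every 2i line (2.53 ± 0.23, adjusted p 4.64e-05). Id1 and Id3, which encode inhibitors of helix-loop-helix factors and are direct BMP targets, were higher by 1.44 ± 0.33 and 1.95 ± 0.45. Id1 was 0.964 to 2.54 in 2i and 4.20 to 8.90 in a2i. Id3 was 1.36 to 3.39 in 2i and 3.06, 13.4, 27.8 and 18.4 in a2i, so that a2i XX line 4 stayed within the 2i range. The call of Id3 was lost without 2i XX line 4 or a2i XY line 1 (largest adjusted p 0.0521). Smad6, an inhibitory Smad, was 4.09 and 2.66 in 2i XY and 1.07 and 0.919 in a2i XY, with XX lines at 5.20 to 6.56 in both media (-0.65 ± 0.12). The medium effect on Smad6 differed between the sexes (0.94, adjusted p 0.039), and its call was lost in the fit to the 8 libraries. These were 3 calls higher and 1 lower among 15 genes, against 7.94% and 5.85% over all genes tested.

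In the related Nodal pathway 3 of 13 genes were called higher and 3 lower, against 7.94% and 5.85% over all genes tested. Nodal itself was 65 and 59.5 RPKM in 2i XX, 45.4 and 42.5 in 2i XY, 35.4 and 39.7 in a2i XX and 26.7 and 24.1 in a2i XY, with no overlap between media (-0.74 ± 0.09, adjusted p 0.000224). Gdf3, a ligand that acts with Nodal, fell by 0.56 ± 0.10. Lefty2, an extracellular Nodal antagonist and target, was 166 and 162 in 2i XX against 45.0 and 104 in a2i XX. Over both sexes it differed by -0.84 ± 0.22, a call that any of 5 single libraries could remove. Its XX and XY effects were not called apart. Tdgf1, the Nodal co-receptor Cripto, was in contrast higher, at 247 and 346 in 2i XX, 197 and 219 in 2i XY, 564 and 737 in a2i XX and 326 and 409 in a2i XY (0.97 ± 0.14, adjusted p 0.000596).

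Of 13 Wnt targets and Tcf/Lef factors, 3 were called higher and 2 lower, against 7.94% and 5.85% over all genes tested. The list median was 0.02. The Wnt target Axin2 was 8.64 to 27.0 RPKM in 2i and 6.51 to 23.1 in a2i (-0.19 ± 0.19, adjusted p 0.596). Tcf7l1, a repressor of Wnt targets and of pluripotency genes, was lower (23.6 to 43.4 in 2i, 11.8 to 24.6 in a2i; -0.88 ± 0.13, adjusted p 0.00104). T, the mesoderm factor Brachyury, was 2.00 and 0.698 in 2i XY and 9.80 and 7.43 in a2i XY. XX lines lay between 0.625 and 1.81 in both media. The difference over both sexes was 1.25 ± 0.27, and the XX and XY effects on T were not called apart. The call of T was lost in the fit to the 8 libraries. Those of Lef1 (0.78 ± 0.21), Rnf43 (0.86 ± 0.22) and Apcdd1 (-0.47 ± 0.13) were lost without any of 6, 7 and 5 single libraries.

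The central pluripotency factors were not called, and 4 genes of the wider core list were higher. The difference was 0.06 ± 0.08 for Pou5f1, -0.25 ± 0.09 for Nanog (adjusted p 0.0885), 0.22 ± 0.11 for Esrrb and 0.02 ± 0.14 for Tfcp2l1. Of 12 core genes, 4 were called higher and none lower. Lin28a, an RNA-binding protein that blocks let-7 processing, was 16.9 and 11.1 RPKM in 2i XX, 50.4 and 42.2 in 2i XY, 29.8 and 53.2 in a2i XX and 106 and 85.0 in a2i XY (1.25 ± 0.18, adjusted p 0.00073). It was higher in a2i within each sex, and the a2i XX lines overlapped 2i XY. Its paralogue Lin28b (0.97 ± 0.11), Utf1 (0.84 ± 0.10) and Tdgf1 completed the list, and all 4 were also called in the fit to the 8 libraries.

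Of 17 naive markers, Klf4 was called higher (0.61 ± 0.18) and Nr0b1 (-0.44 ± 0.12) and Pecam1 (-0.35 ± 0.09) lower. The shares over all genes tested were 7.94% higher and 5.85% lower. All 3 calls were lost in the fit to the 8 libraries, and each was lost without any of several single libraries. Of 13 formative and primed genes, 3 were called higher and 1 lower. Tcf15, a helix-loop-helix factor of cells poised to leave the naive state, rose from 12.3 and 13.1 to 14.9 and 21.5 in XX and from 5.58 and 4.37 to 16.6 and 16.3 in XY (1.01 ± 0.12, adjusted p 0.000265), further in XY lines (difference between the sexes -1.09, adjusted p 0.0297). Sox11 (0.79 ± 0.14) and Grhl2 (0.89 ± 0.17) rose too, whereas Fgf5, the standard marker of primed cells, was at or below 0.175 RPKM in all 8 lines.

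Of the genes for de novo DNA methylation, Dnmt3a and Dnmt3l were higher in a2i and Dnmt3b was not called. Dnmt3a, a de novo methyltransferase, was 10.8 and 10.6 RPKM in 2i XX, 15.3 and 9.27 in 2i XY, 21.6 and 25.9 in a2i XX and 28.7 and 26.4 in a2i XY. All a2i lines were above all 2i lines (1.11 ± 0.19, adjusted p 0.00216). Dnmt3l, its catalytically inactive cofactor, rose from 76.7 and 66.5 to 97.0 and 121 in XX and from 32.2 and 29.6 to 76.6 and 71.0 in XY (0.91 ± 0.14, adjusted p 0.000938). The second methyltransferase, Dnmt3b, was 16.0 to 21.9 in 2i and 16.7 to 21.1 in a2i (0.01 ± 0.23, adjusted p 0.99).

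Neither maintenance gene was called. Dnmt1 differed by 0.02 ± 0.11 and Uhrf1, which guides it to replicated DNA, by -0.13 ± 0.10. Tet1, a dioxygenase that oxidises methylcytosine, was 15.2 to 22.2 in 2i and 18.7 to 41.0 in a2i (0.57 ± 0.14). Its call was lost in the fit to the 8 libraries and without 2i XX line 4 or a2i XY line 1 (largest adjusted p 0.0683). In all, 3 of 16 genes of the methylation machinery were called higher and none lower.

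Of 14 maternally expressed imprinted genes tested, 6 were called higher in a2i and 2 lower, and the fit to the 8 libraries left 1 in each direction. The median difference was 0.70 in XX and 0.02 in XY lines, against 0.05 and -0.01 over all genes, and the sexes were called apart for 3 of the 14. Phlda2, a growth-limiting gene of the Kcnq1 domain on distal chromosome 7, was 7.62 and 6.33 RPKM in 2i XX, 28.7 and 22.4 in 2i XY, 80.2 and 49.1 in a2i XX and 79.0 and 90.5 in a2i XY. The XX and XY lines of a2i overlapped, and all lay above 2i (2.35 ± 0.21, adjusted p 4.07e-05).

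The neighbouring genes Cdkn1c, a Cdk inhibitor, and Slc22a18, a transporter, differed between media mainly in XX lines. Cdkn1c went from 0.912 and 0.479 to 6.87 and 4.68 in XX and from 3.18 and 4.34 to 5.90 and 4.70 in XY, and the sexes differed in this (1.58, adjusted p 0.0165). Slc22a18 was 0.538 and 0.370 in 2i XX and 6.82 and 4.57 in a2i XX, against 6.57 to 11 in XY lines of both media (difference between the sexes 1.80, adjusted p 0.00601). Both were called over the sexes together, by 1.20 ± 0.15 and 1.28 ± 0.14, and both calls were lost in the fit to the 8 libraries. Tspan32 (-0.88 ± 0.19) and Cd81 (-0.38 ± 0.08), from the same chromosome 7 region, were lower. Cd81 was chosen after its values were seen, and the call of Tspan32 was lost in the fit to the 8 libraries. The calls of Osbpl5 (0.54 ± 0.13) and Grb10 (0.53 ± 0.16) were lost there too and without any of 3 and 6 single libraries. The RPKM do not separate parental alleles.

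Of 21 paternally expressed genes, 2 were called higher and 3 lower, against 7.94% and 5.85% over all genes tested. Plagl1, a zinc finger factor, was 84.9 and 74.6 RPKM in 2i XX, 24.7 and 22.7 in 2i XY, 17.7 and 28.5 in a2i XX and 9.71 and 6.78 in a2i XY (-1.61 ± 0.20, adjusted p 0.000325). The a2i XX lines lay around the 2i XY lines. Zrsr1, a splicing factor relative, fell from 6.07 to 10.6 in 2i to 3.40 to 4.86 in a2i without overlap (-0.85 ± 0.09, adjusted p 0.000125). Peg10, a retrotransposon-derived placental gene, rose by 1.43 ± 0.21 (2.01 to 10.1 in 2i, 7.74 to 18.6 in a2i). The calls of Nnat (higher) and Impact (lower) were lost in the fit to the 8 libraries and without any of 7 single libraries.

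Germline genes went in both directions, with 6 of 19 called higher and 4 lower, against 7.94% and 5.85% over all genes tested. Dazl, an RNA-binding protein of germ cells whose promoter is printed above, was 19 and 26.7 RPKM in 2i XX, 7.51 and 10.0 in 2i XY, 9.50 and 8.35 in a2i XX and 2.27 and 3.07 in a2i XY. It fell within each sex, and the a2i XX lines lay within the 2i XY range (-1.33 ± 0.17, adjusted p 0.000368). Hormad1, a meiotic chromosome axis protein (-1.06 ± 0.16), Fkbp6, a chaperone of the piRNA pathway (-0.94 ± 0.15), and Tex19.1, a germline factor (-0.66 ± 0.12, named after its values were seen), were lower as well.

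Dmrt1, Mael and Ddx4 were higher in a2i, and further so in XX lines. Dmrt1, a transcription factor of the gonad, was 2.28 and 2.91 in 2i XX, 9.29 and 8.99 in 2i XY and 11.3 to 14.5 in all a2i lines (1.14 ± 0.15, adjusted p 0.000357; difference between the sexes 1.39, adjusted p 0.0209). Mael, a piRNA factor, and Ddx4, the germ cell helicase Vasa, were higher by 1.07 ± 0.21 and 0.81 ± 0.14, with differences between the sexes of 1.77 and 1.10, and both calls were lost in the fit to the 8 libraries. Khdc3, a component of the subcortical complex of the oocyte, was 8.85 and 6.02 in 2i XX, 62.7 and 59.9 in a2i XX, 35.1 and 33.2 in 2i XY and 25.1 and 27.6 in a2i XY. The order of the sexes was reversed between the media (difference between the sexes 3.27, adjusted p 0.00153). Over both sexes its call (1.27 ± 0.17) was lost in the fit to the 8 libraries. Its partner Ooep differed by -0.58 ± 0.16, a call that any of 4 single libraries and the fit to the 8 libraries removed.

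Epithelial junction genes were among those higher in a2i. Of 20 junction and epithelial state genes, 8 were called higher and 1 lower, and the median was 0.10. Cldn6 (chromosome 17, 23679365 to 23682446), a tight junction claudin of the early embryo, was 3.25 and 2.95 RPKM in 2i XX, 11.7 and 14.5 in 2i XY, 28.3 and 21.9 in a2i XX and 46.5 and 53.1 in a2i XY (2.26 ± 0.17, adjusted p 1.07e-05). The media did not overlap, and XX lines were lower than XY lines in each. Cldn7 was 2.52 and 6.45 in 2i XX, 29.5 and 18.8 in 2i XY, 53 and 28.3 in a2i XX and 38.3 and 73.7 in a2i XY (2.05 ± 0.28). Esrp1, the splicing regulator of epithelial cells, was 0.0836 and 0.207 in 2i XX and 5.74 and 3.14 in a2i XX, with 4.11 and 3.04 in 2i XY and 10.4 and 11.8 in a2i XY (1.81 ± 0.16). For Cldn7 and Esrp1 the a2i XX lines overlapped the 2i XY lines.

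Epcam, an epithelial adhesion molecule, changed evenly, from 59.2 to 71.6 in 2i to 114 to 143 in a2i (0.97 ± 0.08, adjusted p 2.28e-05). Cgn, a tight junction scaffold (0.91 ± 0.12), and Cldn4 (0.59 ± 0.13) rose with them. Zeb1, a repressor of epithelial genes, named after its values were seen, was the gene called lower (-0.52 ± 0.13). Its call was lost in the fit to the 8 libraries and without any of 3 single libraries (largest adjusted p 0.0779). Other genes of epithelial cells stood among the largest rises over all genes: Ap1m2, the epithelial subunit of a clathrin adaptor (2.59 and 2.5 in 2i XX, 17.8 and 21.3 in 2i XY, 23.6 and 16.8 in a2i XX, 57.5 and 64.9 in a2i XY; 2.08 ± 0.12), and Hpn, a membrane serine protease (0.472 to 2.47 in 2i, 4.37 to 14.5 in a2i; 2.17 ± 0.13).

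**Figure D3:**
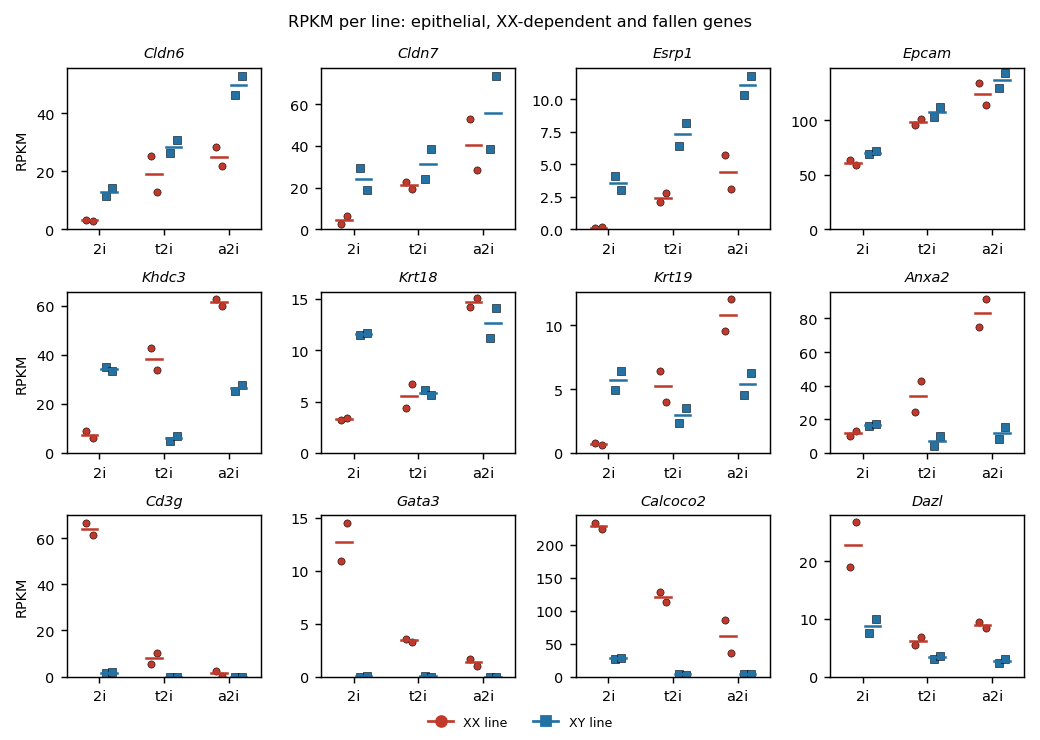
RPKM of 12 genes in each XX line (circles) and XY line (squares) kept in 2i, t2i and a2i, with horizontal bars at the mean of the 2 lines. Cldn6 and Epcam are higher in all a2i lines than in all 2i lines, Khdc3, Krt18, Krt19 and Anxa2 rise from 2i to a2i in XX lines, and Cd3g and Gata3 fall from high 2i XX levels.

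Simple keratins and trophectoderm factors differed between media mainly in XX lines. Of 9 genes tested, 3 were called higher and 2 lower, and the XX and XY effects were called apart for 6 of them. Krt18 was 3.24 and 3.38 RPKM in 2i XX and 14.2 and 15.1 in a2i XX, against 11.2 to 14.1 in XY lines of both media (difference between the sexes 1.75, adjusted p 0.0428). Krt19 went from 0.795 and 0.592 to 9.56 and 12.0 in XX lines, with 4.55 to 6.42 in XY lines (difference between the sexes 2.86, adjusted p 0.00601). Gata3, a trophectoderm factor, went the other way, from 11 and 14.5 to 1.66 and 1.03 in XX lines, and was at or below 0.0611 in XY lines (difference between the sexes -2.51, adjusted p 0.00327). Tfap2a was lower in both sexes (1.56 to 4.86 in 2i, 0.422 to 1.14 in a2i; -1.04 ± 0.15). The calls over both sexes of Krt18, Krt19, Gata3 and Eomes were lost in the fit to the 8 libraries, and Eomes also without any of 6 single libraries. Summed over the list, RPKM was 33.6 to 39.7 in 2i XX and 57.2 to 85.7 in a2i XX, and in XY lines the order was opposite, with 56.3 to 58.6 in 2i and 42.8 to 47.6 in a2i. Of 13 primitive endoderm genes, Sparc, a matrix protein, was called lower (-0.87 ± 0.11) and Lamb1, a laminin chain, higher (0.56 ± 0.16), the latter lost without any of 5 libraries, and the sum of the list was 375 to 426 in 2i and 220 to 368 in a2i. Fewer cells of a type and less RNA per cell cannot be told apart in bulk libraries.

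The genes with the largest differences between the sexes in response to the medium included Khdc3 and 3 others that were higher in a2i XX lines. Igfbp4, a binding protein of insulin-like growth factors, was 0.966 and 3.77 RPKM in 2i XX and 24.2 and 69.8 in a2i XX, with 17.2 and 16.3 in 2i XY and 8.37 and 12.8 in a2i XY (4.43, adjusted p 0.00709). Ndufa4l2, a mitochondrial protein induced by hypoxia, followed the same order (0.931 and 4.61, then 33.1 and 78.9 in XX; 25.6 and 16.7, then 13.9 and 23.4 in XY; 4.18, adjusted p 0.00945). Anxa2, a calcium-dependent membrane binder and Src substrate, rose from 9.88 and 13.3 to 74.8 and 91.4 in XX lines and was 8.54 to 17.4 in XY lines (3.24, adjusted p 0.00572). In these 3 genes the a2i XX lines were the highest. The 2i XX lines were the lowest for Igfbp4 and Ndufa4l2, and overlapped the XY lines for Anxa2. Over both sexes, the calls of these 3 genes were lost in the fit to the 8 libraries, which has no term for a difference between the sexes.

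The same set held Cd3g, Cd3d and Cd200, which of the 4 groups were high in 2i XX lines. Cd3g and Cd3d, adjacent genes on chromosome 9 for subunits of the T-cell receptor complex, were 66.5 and 61.4 and 24.5 and 31.5 RPKM in 2i XX. In a2i XX they were 2.32 and 0.345 and 1.27 and 0.506, in 2i XY at most 1.98 and 0.308, and in a2i XY listed at 0. Cd3g was the gene with the largest fall among those separated within each sex (-3.18 ± 0.24, adjusted p 1.12e-05; difference between the sexes -3.53, adjusted p 0.00327). Cd200, a membrane glycoprotein, was 15.3 and 15.7 in 2i XX and at most 1.09 in the other lines. The calls of Cd3d and Cd200 over both sexes were lost in the fit to the 8 libraries, which has no term for a difference between the sexes.

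A difference between XX and XY lines was present in both media and did not become rarer in a2i. Within 2i, 2961 of 12660 autosomal genes (23.4%) were called between XX and XY lines, and within a2i 3390 (26.8%). In 2i more of them were lower in XX lines (1728 against 1233 higher), and in a2i more were higher (1890 against 1500). The median XX minus XY difference over autosomal genes was -0.04 in 2i and 0.03 in a2i. The direct test of the difference called 617 autosomal genes, 426 of them shifted upward in XX lines. Over all genes tested the median of this shift was 0.08. With quantile normalization the test called 245 genes shifted upward and 200 downward over all chromosomes, so most of the excess upward depended on the normalization.

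Several genes that limit the cell cycle were lower in a2i. Cdkn2a, the locus of the Cdk inhibitor p16 and the p53 activator Arf, was 62.2 and 63.8 RPKM in 2i XX, 45.9 and 42.8 in 2i XY, 28.9 and 36.7 in a2i XX and 10.7 and 14.8 in a2i XY (-1.33 ± 0.12, adjusted p 3.15e-05). Cdkn1a, the p53 target p21, was 116 to 151 in 2i and 74.7 to 97.4 in a2i (-0.65 ± 0.11, adjusted p 0.00177). Neither overlapped between media. Of 14 p53 targets, 7 were called lower and 2 higher, with a median of -0.43. Ccng1 (-0.59 ± 0.09) and Phlda3 (-0.61 ± 0.12), which were lower, and Perp (0.85 ± 0.15), a membrane protein of desmosomes and apoptosis that was higher, were among them. The BH3 protein gene Pmaip1 was higher by 0.55 ± 0.13, a call lost in the fit to the 8 libraries. Among 14 G1 cyclins and Cdk inhibitors 3 were lower and 1, Cdkn1c, higher.

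Among metabolic genes, Pdk1 was higher in a2i. Pdk1, the kinase that closes pyruvate dehydrogenase, was 16.4 and 29.7 RPKM in 2i XX, 51.9 and 48.1 in 2i XY, 59.1 and 97.9 in a2i XX and 132 and 93.6 in a2i XY (1.44 ± 0.19, adjusted p 0.000465). It was 1 of 3 glycolysis and glucose genes called higher of 19, with Gpi1 and Aldoc, whose calls were lost in the fit to the 8 libraries, against 7.94% called higher over all genes. Of 90 nuclear genes of oxidative phosphorylation 1 was called higher and 2 lower. Among 76 cytosolic ribosomal protein genes 2 were lower, and these were the paralogues Rpl39l (-1.52 ± 0.25) and Rpl10l (-0.82 ± 0.18), which are best known from the male germline. Reads of such paralogues, as of Lefty2 and its near copy Lefty1 or of the Xlr4 genes, may be shared between copies, and nothing states how they were assigned. The proteasome gave 1 higher and 1 lower call among 38, cholesterol synthesis 1 lower among 19, amino acid stress genes 2 higher among 18, and PRC2 1 lower among 11. Of 18 fibroblast genes Thy1 was called (1.32 ± 0.20), at 0.66 to 2.49 in 2i and 3.05 to 7.06 in a2i, against 67.0 to 106 in the serum lines.

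**Figure D4:**
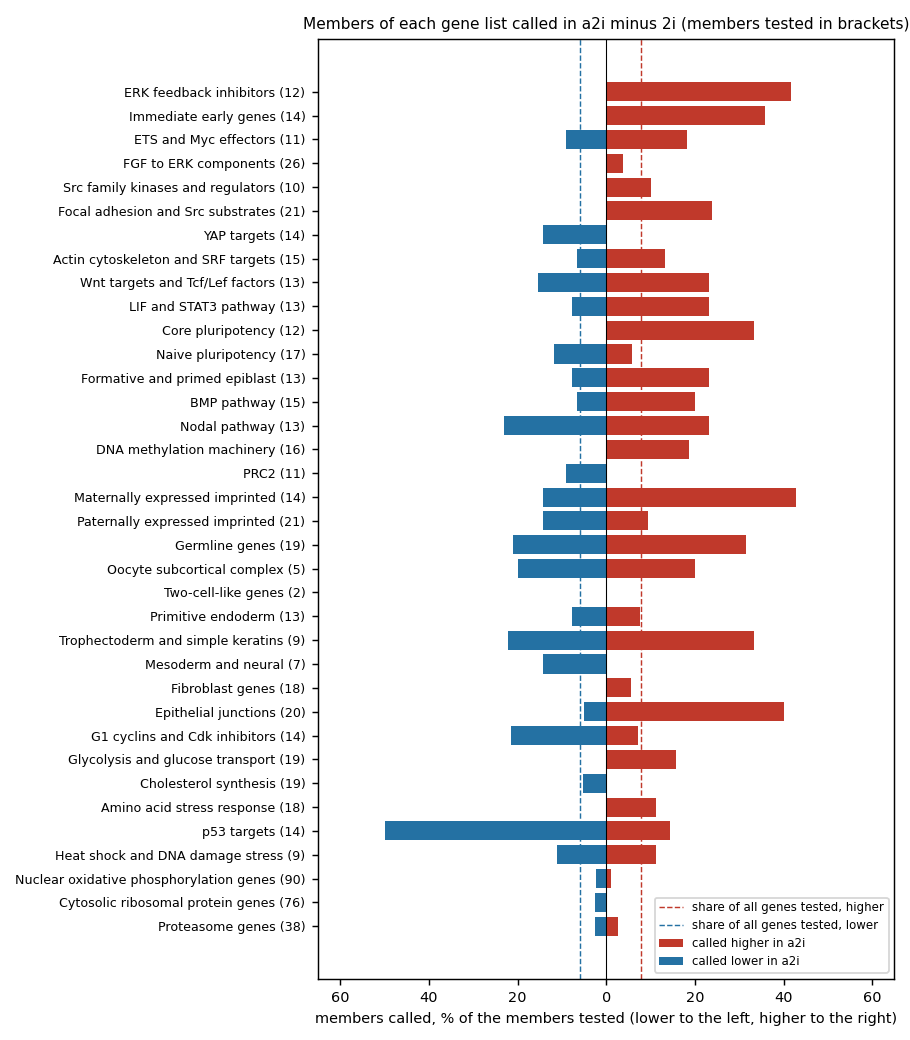
Percentage of the tested members of each gene list called higher (right) or lower (left) in a2i than in 2i, with the number tested in brackets; dashed lines mark the shares over all genes tested, 7.94% higher and 5.85% lower. ERK feedback inhibitors, immediate early genes, maternally expressed imprinted genes and epithelial junction genes extend furthest to the right, and p53 targets furthest to the left.

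Among the genes with the largest changes that were separated within each sex, the rises were led by a predicted gene, Gm9805, listed at 0 in all 4 2i lines and at 4.17 to 11.9 RPKM in a2i, for which no fold is given. Plac8, a cysteine-rich placental protein, was 0 and 0.520 in 2i XX, 2.42 and 5.83 in 2i XY, 5.43 and 3.57 in a2i XX and 30.8 and 45.4 in a2i XY (2.56 ± 0.23, adjusted p 3.15e-05). Trh, the thyrotropin-releasing hormone precursor, was 16.8 and 8.21 in 2i XX, 211 and 194 in 2i XY, 64.4 and 120 in a2i XX and 1138 and 828 in a2i XY (2.52 ± 0.25). Tspan7, an X-linked tetraspanin, rose from 1.56 to 3.60 to 10.8 to 19.4 (2.04 ± 0.17). XY lines exceeded XX lines for Plac8 and Trh in each medium.

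The falls included Meis2, a homeobox factor (49.2 and 38.1 in 2i XX, 6.12 and 7.30 in 2i XY, 8.48 and 5.97 in a2i XX, 0.535 and 0.216 in a2i XY; -2.47 ± 0.22, adjusted p 4.07e-05). Calcoco2, an autophagy receptor, fell from 233 and 224 to 86.0 and 35.9 in XX and from 26.9 and 28.4 to 4.27 and 4.33 in XY (-2.23 ± 0.22). Tnni1, a troponin of slow muscle, Nefm, a neurofilament, Spats2l and the meiotic genes Rec114 and Aurkc fell by 1.63 to 1.99. Rec114, a factor for meiotic DNA breaks, was 46.7 to 63.9 in all 2i lines and 33.6, 17.7, 6.56 and 10.4 in a2i. The X-linked genes 1700013H16Rik, Cited1 and Xlr4a were each highest in 2i XX and fell in both sexes (-1.89, -1.82 and -1.74). Among called genes of the X, 39 were higher and 38 lower of 474 tested.

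Set against t2i, where the MEK inhibitor is reduced, a2i differed at few genes. Of 13150 genes 132 (1.0%) were called between a2i and t2i, 93 higher in a2i and 39 lower, and 1062 (8.08%) between t2i and 2i. The first count fell to 1 in a fit to the 8 libraries of these media and ranged from 17 to 196 with a library left out. The differences of a2i and of t2i from 2i use the same 2i lines, and are set side by side. Dusp6 differed from 2i by 1.57 in a2i and 0.85 in t2i, Spry4 by 2.27 and 1.35, Socs3 by 1.28 and 0.94, Phlda2 by 2.35 and 2.11, Dnmt3l by 0.91 and 0.87, and Dazl by -1.33 and -1.44. None of these was called between a2i and t2i, where the standard errors were 0.14 to 0.31.

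The genes called between a2i and t2i included Egr1, at 0 to 0.0899 RPKM in the 4 t2i lines and 0.29 to 2.28 in a2i (1.11 ± 0.14, adjusted p 0.00632), and Fos (0.75 ± 0.16, adjusted p 0.0441). The largest were 1700013H16Rik (-1.56 ± 0.21, adjusted p 0.0083), Hormad2 (-1.38 ± 0.25, adjusted p 0.0239) and Khdc3 (1.34 ± 0.17, adjusted p 0.00678). Vim was 313 to 401 in t2i and 104 to 233 in a2i (-1.18 ± 0.18, adjusted p 0.0131), and Bhlhe40, a stress-responsive helix-loop-helix repressor, 9.08 to 33.2 and 18.4 to 128 (1.20 ± 0.20, adjusted p 0.017). Krt18 (1.13 ± 0.22), Dmrt1 (1.06 ± 0.15) and Lefty2 (-1.10 ± 0.22) were called as well. For Egr1, Krt18, Khdc3 and Vim the t2i lines had shown no call against 2i. Grin1, a glutamate receptor subunit, and the X-linked Tex13 and Gm21887 completed the 8 largest, at 1.26, 1.25 and 1.22.

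**Figure D5:**
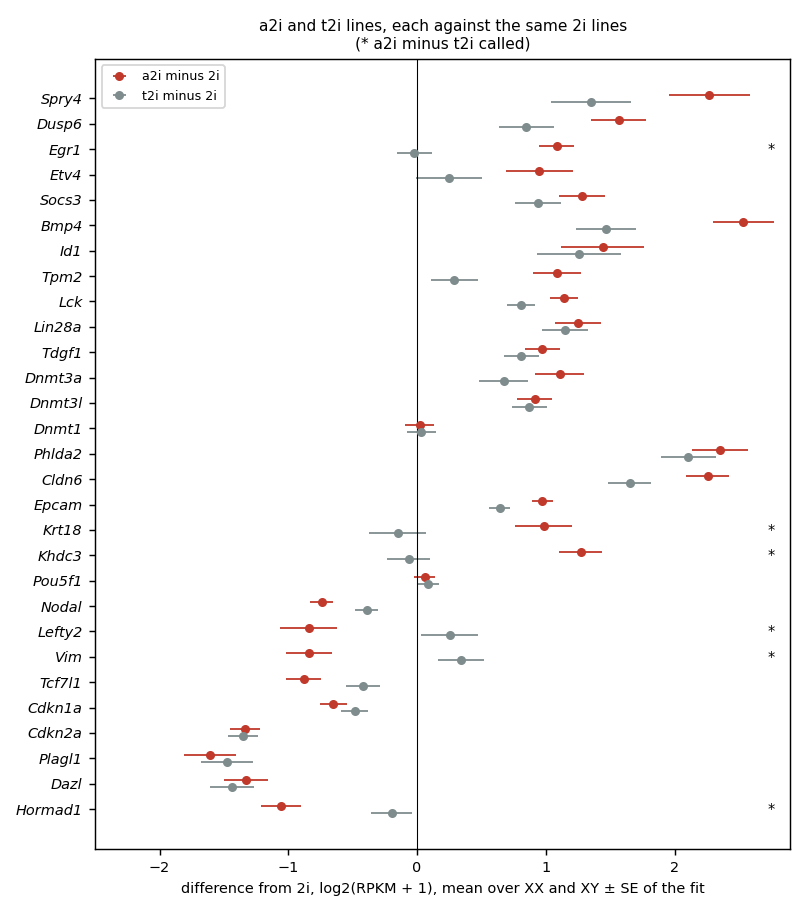
Difference from 2i on the log2(RPKM + 1) scale for 29 genes in a2i lines (red) and t2i lines (grey), as the mean over XX and XY lines with the standard error of the fit; an asterisk marks genes called between a2i and t2i. Dnmt1 and Pou5f1 lie near 0 in both media, Dazl and Cdkn2a lie below 0 in both, and Egr1, Krt18, Khdc3, Vim, Lefty2 and Hormad1 carry an asterisk.

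The lines of a group were not equal. In a2i, XX line 4 was below XX line 18 for Dusp4 (4.10 and 10.2 RPKM), Dusp6, Spry4, Egr1, Fos, Bmp4 and Id3, and above it for Cldn7, Cldn6 and Phlda2. Such differences within a pair enter the standard errors given with each value.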

How the data were processed

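RNA from 16 ESC lines of the cross (2i, t2i, a2i and serum, XX and XY, 2 lines each) was used, 8 of them for the main comparison. For the fibroblast marker sums alone, 2 libraries of embryonic fibroblasts from an F1 cross of 129X1/SvJ and MSM/Ms were read. The authors deposited RPKM per locus. Per the submitters' processing notes, which give no roles, Cufflinks 2.2.1, cutadapt 1.9.1, Bowtie2 2.2.5 and TopHat2 2.1.0 were used with the build mm10. No source used here gives the annotation release. The absolute depth is unknown, so no counting interval is given; relative depth was read from the commonest ratio between libraries of values below 0.05 RPKM. Loci sharing a name were represented by the one with the highest mean, and deposited starts were raised by 1, after which 34.9% equal the RefSeq start of the same symbol against 2.79% before.

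Values were analysed as log2(RPKM + 1), which understates changes at levels around 1 RPKM and under. The fit took genes that reached 1 RPKM in 2 or more of the 16 libraries and was made with limma 3.58.1 (R 4.3.3; 8 group means, trended empirical Bayes), and p-values were adjusted by Benjamini-Hochberg over all genes tested. For a medium effect, the XX difference and the XY difference were averaged. The fit was checked on simulated data with independent noise and the same spread of a gene in every group. That check does not cover unequal pairs of lines or fibroblast RNA in the serum libraries. p-values rest on the spread between lines of the same group, with 2 lines each, pooled over the 8 groups. The serum libraries, which hold fibroblast RNA, enter the estimate of spread, and a fit without them is among the alternatives. The alternatives were fits to 8 or 12 libraries, a pseudocount of 0.1, no filter, a filter of 4 libraries, quantile normalization and each library of the media compared left out in turn (no serum library was left out singly). The fit to 8 libraries with 4 group means for the main comparison was added after seeing the data.

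Genes were named by rule: a checked set, up to 6 called members of a list with the largest differences, the 12 largest rises and 12 largest falls separated within each sex, and the 8 largest differences between the sexes and between a2i and t2i. Genes named beyond it are marked in the text, and 1 gene that the rule names is not reported here. The comparison, lists and rule were chosen with earlier results of these data known. Spry3, Xist, Tsix, H19 and Meg3 were not analysed here. Promoter sequences are from RefSeq (GRCm38.p6), matched by symbol.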

Additional observations from a re-analysis of the deposited data

Results flagged for a closer look

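Of the genes reported, 30 had medium effects (a2i minus 2i) that differed between XX and XY lines in a test of the difference itself, and these values are XX difference minus XY difference on the log2(RPKM + 1) scale. Among signalling and cytoskeletal genes the value was 1.78 for Fos, 1.22 for Ets2, 0.87 for Tagln2, 0.90 for Stat3, 0.94 for Smad6 and -1.09 for Tcf15. Among imprinted genes it was 1.58 for Cdkn1c and 1.80 for Slc22a18, and among germline and oocyte genes 1.10 for Ddx4, 1.77 for Mael, 1.39 for Dmrt1 and 3.27 for Khdc3.

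Trophectoderm and keratin genes gave 1.74 for Eomes, 1.75 for Krt18, 2.86 for Krt19, -2.51 for Gata3 and -1.13 for Tfap2a. The stress and metabolic genes Gpi1, Ddit4, Bhlhe40 and Ndufa4l2 gave 0.97, 1.48, 2.14 and 4.18. Of the genes with large changes, Ap1m2 gave 0.96, Igfbp4 4.43, Anxa2 3.24 and Grin1 2.5, while Cd3g gave -3.53, Cd3d -3.61, Cd200 -3.59, and the X-linked Tex13 and Gm21887 -1.63 and -1.94.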

How the results depend on the processing

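The count of 1813 genes between a2i and 2i was 706 in the fit to the 8 libraries with XX or XY as a covariate, 1321 with 4 group means in the same libraries, and 1234 to 1633 with 1 of the 8 left out. Here and below, the libraries left out singly were those of the media compared. With 1 of the 8 left out, no gene called in the main fit changed sign. In the fits to the 8 libraries the differences equal those of the main fit by design, so a sign could not change there. Of the 1813, 690 and 1244 stayed called in the first and second. The count of genes whose effect differed between the sexes (648) was 230 with 4 group means in the 8 libraries and 161 to 497 with a library left out. Between a2i and t2i the count (132) was 1 in the 8 libraries of these media and 17 to 196 with a library left out, the lowest without a2i XY line 3. Between t2i and 2i the count (1062) was 415 and 569 to 904. The cause of these shifts was not tested. Serum libraries left out, a pseudocount of 0.1, no filter, a stricter filter and quantile normalization kept each of the 4 counts within 1.5 times; quantile normalization gave 837 higher and 880 lower calls against 1044 and 769.

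Called genes named by the rule or chosen after their values were seen numbered 144, and not all are printed here. Of the 144, 77 stayed called in every alternative and 42 lost the call with a library left out. In the fit to the 8 libraries with XX or XY as a covariate, 60 lost it. Genes with differences near 0 that missed the threshold changed sign. After quantile normalization Csk was -0.0119 and Dnmt3b -0.0092. With a library left out, Fgf5 ranged from -0.0875 to 0.0289, Src from -0.2891 to 0.1035, Csk from -0.0751 to 0.0951, Axin2 from -0.3865 to 0.0149, Tfcp2l1 from -0.0963 to 0.1415, Dnmt1 from -0.0975 to 0.138 and Dnmt3b from -0.096 to 0.1174. Fyn was called without 2i XX line 4 (0.39) and Nanog without a2i XX line 4 (-0.34). No paired analysis was possible because lines of a2i and 2i of the same sex share at most 1 line number, and a line number does not mark a shared embryo or batch in the labels. With 2 lines in a group and absolute depth unknown, small differences and those of genes near 0 RPKM are limited in precision.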

Other observations

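Genes called higher in a2i made up 12.1% of the genes tested on chromosome 15, 11.3% on chromosome 14 and 10.9% on chromosome 10, and 6.13% on chromosome 19, the lowest of the autosomes. Called genes also stood in runs of at least 4 neighbours among the genes tested. On chromosome 11 the adjacent Stat5b, Stat5a, Stat3 and Ptrf were all higher in a2i, and Calcoco2, Ttll6, Hoxb13 and Hoxb9 all lower. On chromosome 6, M1ap, Dok1, Loxl3, Htra2 and Aup1 were lower. These runs were chosen after their values were seen, no test was made of them, and neighbouring genes are not independent.

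Gsc, a mesendoderm factor, was the gene called among 7 mesoderm and neural genes tested (8.74 and 9.37 RPKM in 2i XX, 3.69 and 3.02 in 2i XY, 5.54 and 3.72 in a2i XX, 0.899 and 0.777 in a2i XY; -1.05 ± 0.18, limma adjusted p 0.00226). Of 9 stress genes, Gadd45a, a DNA damage gene, rose to 59.2 to 66.4 RPKM in a2i from 20.6 to 49.7 in 2i (0.81 ± 0.15), and Dnajb1, a heat shock co-chaperone, fell from 41.1 to 46.8 to 31.6 to 33.4 (-0.45 ± 0.07). Neither gene overlapped between media.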
